A study of Mus musculus with 4 samples.

Results

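Interferon-stimulated genes were examined in RNA sequencing of mouse gastric organoids, which are stomach epithelial cells grown as small structures in a gel. The set was a list of 39 gene symbols, and all 39 were found among the 45777 genes in the files. Each genotype was represented by 2 libraries. By the series title, the libraries with the genotype label Control carry knockouts of Cdh1, which encodes the adhesion protein E-cadherin, and Trp53, which encodes the tumour suppressor p53. Those labelled Smad4 Knockout carry both of these and a knockout of Smad4, a common SMAD protein through which TGF-beta family signals reach the nucleus. Every library therefore comes from cells described as lacking E-cadherin and p53, and no library with these genes intact was analysed here. The lines are named CPE and CPG for the controls and CPS1 and CPS4 for the Smad4 knockouts, so each library is 1 line. The sources used here do not say whether the lines are clones, share an animal or derive from one another, nor the strain, age and sex of the animals. Cells were grown with serum and L-WRN conditioned medium, and were moved for 2 days before harvest into medium with B27 and N2 and without either. The p-values measure only the spread between these 4 libraries.

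Type I and type III interferons are secreted when cells sense foreign or misplaced nucleic acid. Their receptors activate the kinases JAK1 and TYK2. These switch on a transcription factor complex, ISGF3, which contains STAT2 and IRF9 and binds the interferon-stimulated response element (ISRE) in front of many genes. Type II interferon, interferon gamma, acts mainly at another element, the gamma-activated site (GAS). Many epithelial cells also keep part of this gene set at a low level without any added interferon.

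The depth was 85649781 to 99845702 counts per library, and 20586 to 20999 genes had a count above 0. Smad4 was at 94.5 and 103 CPM (counts scaled to a common library total) in Control 1 and 2 and at 54.4 and 52.9 CPM in Smad4 Knockout 1 and 2. It was lower in both knockout libraries, and its transcript was still present (log2 fold change -0.88, SE 0.10, edgeR unadjusted p = 0.000163, adjusted p = 0.677). Which stretch of Smad4 was deleted is not stated, so the remaining counts do not check the knockout itself. The gastric epithelial label was checked against 17 listed markers. Of these 16 were measured, and their summed level was 8801 to 9598 TPM (a level scaled for gene length). The sum was led by the keratin genes Krt8, Krt18 and Krt19, so it checks an epithelial more than a gastric origin. Other listed markers varied widely, with means of 148 TPM for Cldn18, 113 for Tff1, 65.9 for Tff2 and 55.0 for Gkn3. Means were lower for Sox2 (20.8 TPM), Gkn1 (10.4), Gkn2 (1.21) and Muc5ac (0.216). Muc6 had 0 counts in both knockouts. The chief cell enzyme Pgc and the parietal cell pump subunit Atp4b were at 0 in every library, while the other pump subunit, Atp4a, was at 3.54 to 4.02 CPM. Markers of leukocytes, which respond strongly to interferon, summed to 3.33 to 3.40 TPM in the controls and 2.86 to 4.56 TPM in the knockouts. Cd3e and Nkg7 were among the 7 of 11 leukocyte markers with 0 counts in all libraries, and Coro1a, Cd53 and Laptm5 held most of the rest. In the macrophage and dendritic cell list, Siglech and Tyrobp had 0 counts. This list of 13 summed to 125 and 141 TPM in the controls and 108 and 124 TPM in the knockouts, nearly all of it Cd14, and to 9.67 to 12.7 TPM without Cd14. Cd68 and Bst1 followed in that list. Fibroblast markers (Pdgfra, Col1a1 and Col3a1 highest) summed to at most 1.04 TPM and endothelial markers (Kdr, Pecam1 and Tek highest) to at most 1.59 TPM. In such bulk libraries fewer cells of a type and less RNA per cell cannot be told apart.

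Windows of 300 bases around annotated gene starts (RefSeq, GRCm38.p6) were searched on both strands for a core of the ISRE, GAAA then NN then GAAA, where N is any base. Its reverse complement is TTTC then NN then TTTC. Such windows run from 250 bases before a start to 50 after it, and 29 of the 39 members had at least 1. The core was found in 11 of these 29 members (37.9%), against 3.99% of 27025 genes. A longer form, the same letters followed by CT, contains the core and was found in 5 members (17.2%), against 0.303% of all genes. The GAS letters TTCNNNGAA, which can share bases with the core and read the same on both strands, were found in 7 members (24.1%) against 9.55%. The sites below lie before the start and outside the gene itself, and are shown because their letters match the element through which ISGF3 is known to act. A match in letters does not show binding. They are written 5′ to 3′ on the strand of the gene, with the core in capitals and 15 bases on either side.
Ifit1: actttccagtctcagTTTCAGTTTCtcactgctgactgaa
Isg15: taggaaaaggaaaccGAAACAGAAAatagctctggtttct
Rsad2: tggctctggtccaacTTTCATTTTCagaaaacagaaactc
Oas3: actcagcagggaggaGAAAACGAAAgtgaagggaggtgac
Bst2: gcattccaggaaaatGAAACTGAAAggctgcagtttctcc
Trim30a: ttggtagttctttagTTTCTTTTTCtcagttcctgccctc
Stat2: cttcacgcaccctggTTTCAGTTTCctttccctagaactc
The windows of Ifit1 (chr19:34640789-34640828) and Stat2 (chr10:128270261-128270300) are on the plus strand. Those of Isg15 (chr4:156200860-156200899), Rsad2 (chr12:26456548-26456587), Oas3 (chr5:120777710-120777749), Bst2 (chr8:71537572-71537611) and Trim30a (chr7:104465205-104465244) are on the minus strand. The core began 36 bases before the start in Trim30a, 66 in Isg15, 75 in Oas3, 85 in Ifit1, 120 in Rsad2, 124 in Bst2 and 222 in Stat2. Genes with these letters had very different levels, from a mean of 35.1 TPM for Bst2 to 0.0571 TPM for Oas3. Across the 11 tested members with the core, the median log2 fold change, knockout over control, was 0.22 and 9 were above 0, with Oas3 and Trim30a tested through their knockout counts alone. In the 17 tested members with a window and no core it was 0.18, and 15 were above 0.

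Levels differed widely between members. A mean of at least 10 TPM was reached by 11 members, 12 lay between 1 and 10 TPM, and 16 lay under 1 TPM. The highest means were those of Irf1 (45.1 TPM), Samd9l (36.4), Bst2 (35.1), Lgals3bp (27.4) and Ifi35 (22.3). Several genes known as strongly interferon-inducible were low. Isg15, which encodes a ubiquitin-like modifier, had a mean of 0.669 TPM, Rsad2 of 0.429 TPM and Ifit1 of 0.258 TPM. Oas2 had a mean of 0.0278 TPM.

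**Figure D1:**
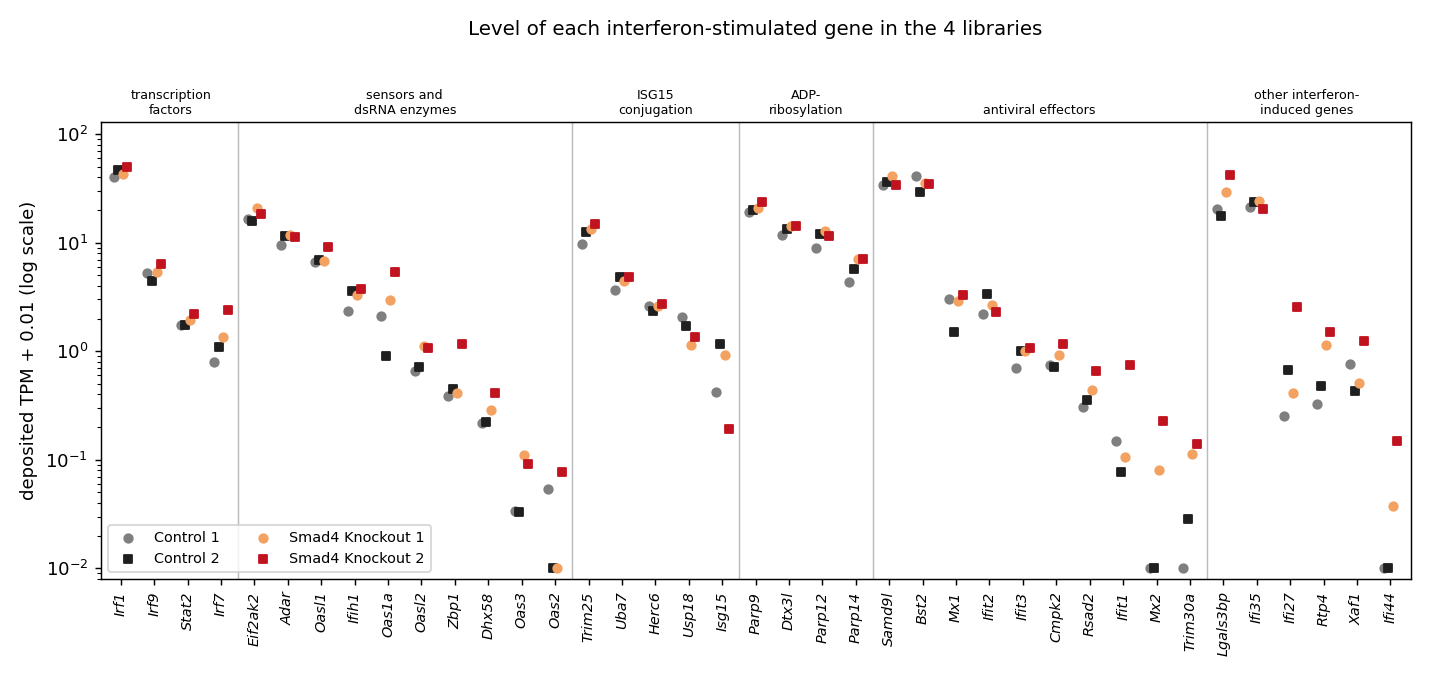
Level of each of the 39 members in each of the 4 libraries, as deposited TPM plus 0.01 on a log scale, grouped by role (1 point per library). Irf1 is the highest member in every library but Control 1, where Bst2 is slightly above it (40.8 against 40.4 TPM), while Mx2 and Ifi44 are at 0 in both controls, which plots them at 0.01.

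The design asks what the added loss of Smad4 does in cells that already lack Cdh1 and Trp53. No member passed edgeR's quasi-likelihood test after Benjamini-Hochberg adjustment over all 18115 genes tested, in which 0% of genes were called higher and 0% lower. A total of 37 members were tested. Among them 4 were higher in the knockouts at an unadjusted p under 0.05 (10.8%, against 3.33% of all tested genes), namely Lgals3bp, Rtp4, Parp14 and Oas1a, and 0 were lower (against 3.04%). DESeq2 called 1 member, Lgals3bp, higher (adjusted p = 0.0277) and 0 lower, where it called 0.520% of 18851 genes higher and 0.175% lower. Limma on log2(TPM + 1) called 0 of 25 members and 0% of 13277 genes.

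The members nevertheless lay mostly on one side. Shares of the members set beside those of all genes are a description and not a test. The list was chosen with earlier results of these data known, and its members are not independent observations. The log2 fold change was above 0 in 32 of the 37 tested members (86.5%), against 49.5% of all tested genes, and its median was 0.25 against 0.00 for all tested genes. In 19 members (51.4%) both knockout libraries were above both controls, against 18.2% of all tested genes, and in 1, Usp18, both were below, against 18.6%. Mx2 and Ifi44 did not pass the filter on low counts, and Oas3 and Trim30a passed it through the knockout libraries alone. Over all 39 members without a filter, the mean CPM was higher in the knockouts in 34 (87.2%, against 50.6% of the 24567 genes with a count). Without the filter 21 members did not overlap upward (53.8%, against 16.0%). Restricted to a mean of at least 5 CPM, which keeps 19 members, 16 were above 0 (84.2%, against 48.5% of 10804 genes). Of these 19, 9 did not overlap upward (47.4%, against 17.4%), 0 did not overlap downward (against 19.8%), and the median was 0.16. Fold changes of these better-measured members were small, from -0.19 to 0.87 on the log2 scale, with SEs of 0.11 to 0.24.

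**Figure D2:**
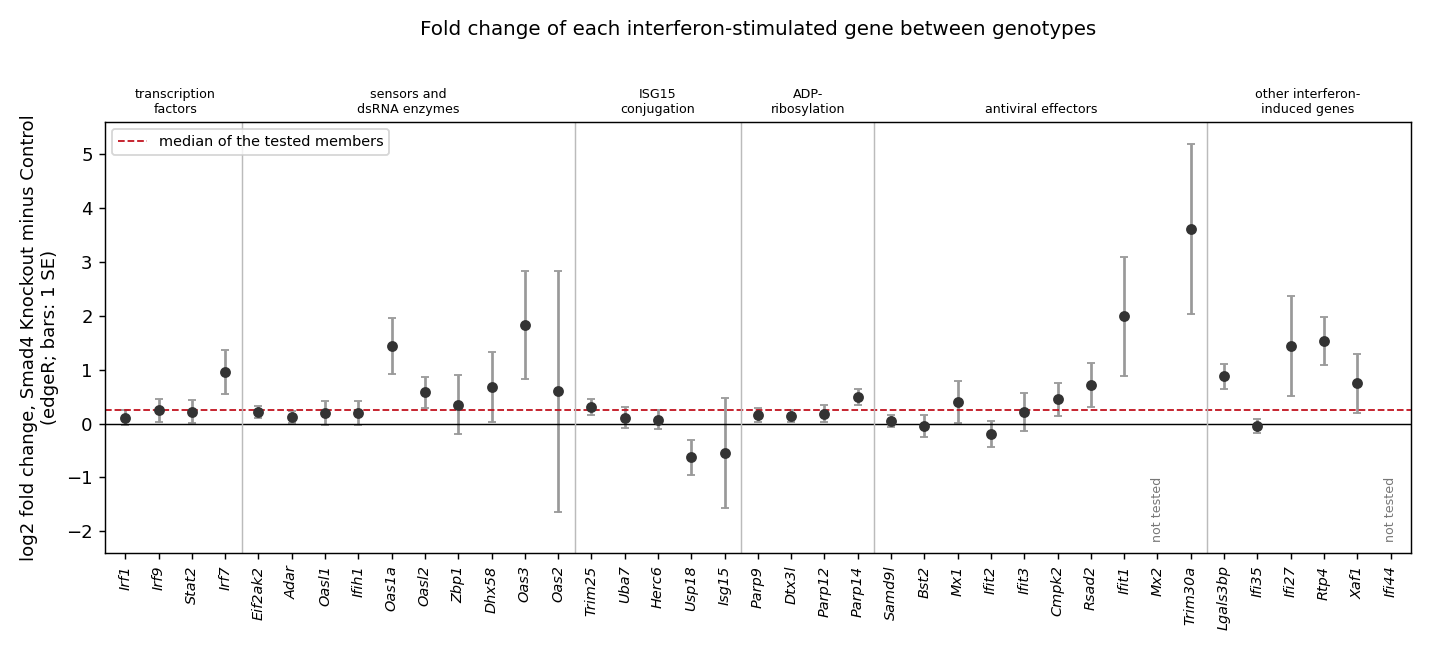
Fitted log2 fold change, Smad4 Knockout minus Control, of each member by role, with bars of 1 SE from edgeR; the dashed line is the median of the 37 tested members, 0.25. Of the 37 tested members 32 lie above 0, Usp18, Isg15, Ifit2, Bst2 and Ifi35 lie below, and Mx2 and Ifi44 were not tested.

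The knockout lines were unequal. Smad4 Knockout 2 was the highest of the 4 libraries in 28 of the 37 tested members (75.7%, against 29.1% of all tested genes). Smad4 Knockout 1 was highest in 4 (against 17.8%), Control 1 in 2 (against 26.8%) and Control 2 in 3 (against 26.3%). Smad4 Knockout 2 exceeded both controls in 31 members (83.8%, against 35.2%) and Smad4 Knockout 1 in 20 (54.1%, against 29.9%). On the log2(CPM + 0.5) scale, taken as a difference from the mean of the 4 libraries, the member median was -0.14 and -0.15 in the controls. It was -0.01 for Smad4 Knockout 1 and 0.26 for Smad4 Knockout 2. The same median over all tested genes lay within 0.01 of 0 in each library. Without Smad4 Knockout 2 the median log2 fold change was 0.14, with 28 of 37 members above 0, and without Smad4 Knockout 1 it was 0.44. Mitochondrial genes took 1.48% of the counts in Smad4 Knockout 2 and 0.941% to 1.18% in the other libraries, and ribosomal RNA took 0.562% against 0.242% to 0.389%. Leukocyte markers summed to 4.56 TPM there and to 2.86 to 3.40 TPM elsewhere, but did not move together. In Smad4 Knockout 2, Coro1a was at 2.59 CPM against 1.30 to 2.09 CPM elsewhere, and Laptm5 at 1.32 against 0.347 to 1.27 CPM. Cd53 was at 2.03 CPM against 1.99 CPM in Smad4 Knockout 1, and Ptprc at 0.351 CPM against 0.490 and 0.744 CPM in the controls. The gastric surface cell gene Tff1 was also highest in Smad4 Knockout 2, at 24.7 and 16.0 against 31.6 and 61.4 CPM. So were Krt8, Krt19, Gkn1, Gkn2, Gkn3 and Muc5ac, but the gastric list did not move together either. Tff2 was highest in Smad4 Knockout 1, at 37.6 CPM against 23.4 CPM in Smad4 Knockout 2. Epcam, Krt18, Cldn18, Sox2, Muc6 and Atp4a were highest in a control. The part of these in the member values was not tested.

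**Figure D3:**
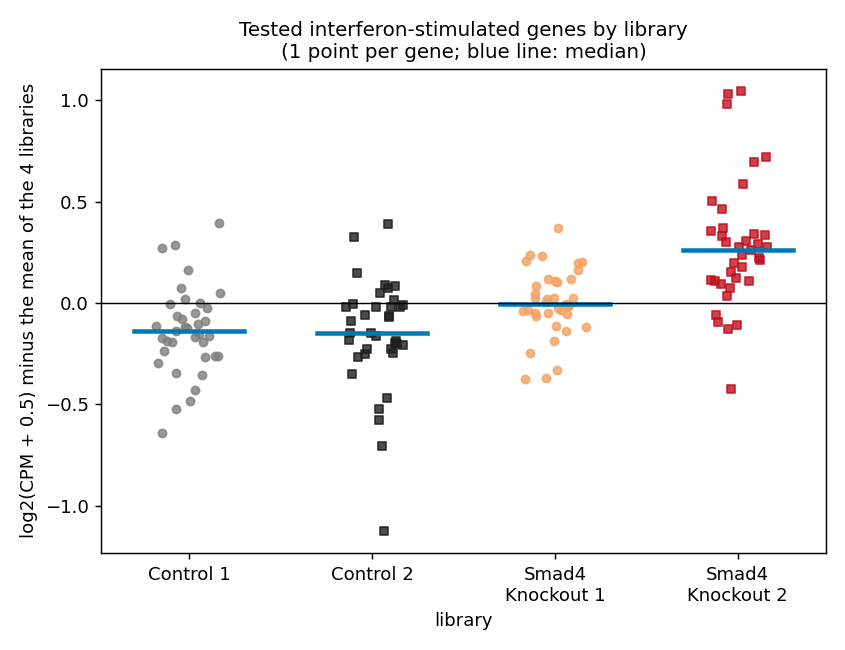
Each of the 37 tested members as a point per library, on the log2(CPM + 0.5) scale as a difference from that gene's mean over the 4 libraries; blue lines are medians. The medians are -0.14 and -0.15 in the controls, -0.01 for Smad4 Knockout 1 and 0.26 for Smad4 Knockout 2, where 32 of 37 points lie above 0.

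The transcription factors of the response were all above 0. Irf7, which amplifies interferon production and is itself interferon-induced, was at 0.919 and 1.23 CPM among the controls versus 1.47 and 2.71 CPM with Smad4 knocked out. Its groups did not overlap, with Smad4 Knockout 2 well above the rest (log2 fold change 0.96, SE 0.41, edgeR adjusted p = 0.802; 0.46 without Smad4 Knockout 2). Stat2 was at 4.99 and 4.63 CPM against 5.09 and 6.13 CPM, so Smad4 Knockout 1 was barely above Control 1. Irf9, the DNA-binding partner in ISGF3, was at 8.37 and 6.85 CPM versus 7.86 and 10.2 CPM, and Irf1, a factor of both interferon arms, at 58.7 and 61.3 CPM against 57.2 and 71.9 CPM. In both of these the groups overlapped, and only Smad4 Knockout 2 exceeded the controls.

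The 10 sensors and double-stranded RNA enzymes were all above 0, with a median log2 fold change of 0.47, and 6 did not overlap upward (against 18.2% of all tested genes). Oas3, 1 of these 6, passed the filter through the knockouts alone. The most abundant were Eif2ak2, the kinase PKR that halts translation on double-stranded RNA, and Adar, which edits such RNA. Eif2ak2 was at 61.0 and 52.9 CPM among the controls versus 66.5 and 65.2 CPM with Smad4 knocked out (log2 fold change 0.21, SE 0.12). Adar was at 38.1 and 40.5 against 41.6 and 44.3 CPM (0.13, SE 0.11). Both were thus higher in each knockout library by a small margin. Oas1a, one of the synthetases that make the 2′-5′ oligoadenylate activator of RNase L, spread far more. It was at 2.56 and 1.02 CPM among the controls versus 3.31 and 6.38 CPM with Smad4 knocked out (1.43, SE 0.52, edgeR unadjusted p = 0.0339, adjusted p = 0.741). Control 2 was lowest and Smad4 Knockout 2 highest, and the log2 fold change ran from 0.90 to 2.24 as single libraries were left out. Oasl2 was at 1.30 and 1.34 against 1.87 and 2.06 CPM (0.58, SE 0.29), with the controls close to each other. The RNA helicase Ifih1 (MDA5) was at 8.25 and 11.9 against 10.4 and 12.7 CPM, and Oasl1 at 9.11 and 9.26 against 8.47 and 12.4 CPM, and for both the groups overlapped. The rest had few counts: at most 60 for the helicase Dhx58 (LGP2), 80 for the Z-nucleic acid sensor Zbp1, and 24 for Oas2 and for Oas3. Oas3 was at 8 and 6 counts in the controls against 24 in each knockout. Oas2 had 0 in Control 2 and in Smad4 Knockout 1, and 16 and 24 in the other two libraries.

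Genes of ISG15 conjugation went in different directions, with 3 of 5 above 0 and a median of 0.07. Isg15 itself was at 20 and 50 counts in the controls and at 36 and 9 in the knockouts. It was lowest in Smad4 Knockout 2, the library in which most other members were highest. Usp18, which removes ISG15 from proteins and dampens signalling at the type I receptor, was at 2.36 and 1.81 CPM among the controls versus 1.18 and 1.52 CPM with Smad4 knocked out. It was the member below both controls in both knockouts (log2 fold change -0.63, SE 0.32, edgeR adjusted p = 0.832), and ran from -0.81 to -0.42 as single libraries were left out. Trim25, a ubiquitin ligase with a role in RIG-I signalling, was at 34.6 and 42.3 against 43.3 and 51.6 CPM (0.30, SE 0.15). The groups of Trim25 did not overlap, though Control 2 and Smad4 Knockout 1 were close, and its value was 0.17 without Control 1 and 0.18 without Smad4 Knockout 2. Uba7, the activating enzyme for ISG15, was at 7.45 and 9.14 against 8.27 and 9.61 CPM, and Herc6, the main mouse ligase for it, at 8.76 and 7.44 against 8.05 and 8.997 CPM, with overlapping groups.

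All 4 genes of ADP-ribosylation had both knockouts above both controls (against 18.2% of all tested genes), Parp9 and Parp12 by a very small gap. Parp14, a mono-ADP-ribosyltransferase, was at 22.7 and 29.2 CPM among the controls versus 36.2 and 36.8 CPM with Smad4 knocked out. The knockout libraries nearly coincided here, so this difference did not rest on Smad4 Knockout 2 (log2 fold change 0.49, SE 0.15, edgeR unadjusted p = 0.0181, adjusted p = 0.677; 0.50 without Smad4 Knockout 2 and 0.33 without Control 1). Parp9 was at 41.1 and 40.3 against 41.6 and 49.4 CPM (0.16, SE 0.13). Its binding partner Dtx3l, a ubiquitin ligase, was at 39.05 and 41.9 against 43.3 and 46.1 CPM (0.14, SE 0.11). In Parp12 the values 18.5 and 23.4 against 24.1 and 23.4 CPM left almost no gap between Control 2 and Smad4 Knockout 2. Parp14 (35831892 to 35871518), Dtx3l (35926515 to 35939027) and Parp9 (35938470 to 35972621) lie side by side on chromosome 16 in GRCm38. Dtx3l and Parp9 overlap by 558 bases, where reads cannot be assigned if strand was not used in counting.

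Of the 10 antiviral effectors 9 were tested and 7 were above 0 (median 0.40), with levels from 0.0630 to 36.4 TPM. Samd9l, a restriction factor of poxviruses, was at 117 CPM in both controls and at 128 and 114 CPM with Smad4 knocked out (log2 fold change 0.05, SE 0.11). Bst2 (tetherin), which holds budding virus on the cell surface, was at 21.2 and 14.3 against 16.6 and 17.8 CPM (-0.04, SE 0.21), so the controls enclosed the knockouts. Ifit2 was at 5.53 and 7.95 against 6.10 and 5.68 CPM, and the GTPase Mx1 at 5.24 and 2.42 against 4.54 and 5.58 CPM, both overlapping. Rsad2 (viperin) was at 0.725 and 0.798 CPM among the controls versus 0.960 and 1.54 CPM with Smad4 knocked out, and its chromosome 12 neighbour Cmpk2, a mitochondrial nucleotide kinase, at 1.52 and 1.48 against 1.76 and 2.33 CPM. In both of these the groups did not overlap and Smad4 Knockout 2 was highest. Ifit1 was at 23 and 10 counts in the controls and at 13 and 118 counts in the knockouts, so its log2 fold change of 1.99 (SE 1.10) came from 1 library and was -0.17 without it. The annotation places all of Ifit1 inside the span of Ifit1bl1, a related gene, so counts of Ifit1 are uncertain. Ifit3 was at 0.970 and 1.17 against 1.18 and 1.30 CPM, and shares much of its sequence with Ifit3b (1.02 and 0.777 against 0.486 and 0.918 CPM), so the same uncertainty holds. Trim30a, a mouse TRIM protein of a family with several copies, was at 0 and 4 counts in the controls against 20 and 31 in the knockouts (3.61, SE 1.58). It is among the 7 above 0, and passed the filter through the knockouts alone. Mx2 had 0 counts in both controls and 9 and 32 in the knockouts. Pooled over both knockouts, the level of Mx2 was 0.224 CPM, which is 14.2-fold above a floor of 3 counts over the control group. This ratio leaves out the spread between the knockouts.

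Of the other interferon-induced genes, Lgals3bp had the smallest p of all members. It encodes a secreted glycoprotein that binds galectins, and was at 29.2 and 23.3 CPM among the controls versus 38.0 and 58.0 CPM with Smad4 knocked out. Both knockouts were above both controls, with Smad4 Knockout 2 highest (log2 fold change 0.87, SE 0.23, edgeR unadjusted p = 0.00895, adjusted p = 0.677; 0.55 without Smad4 Knockout 2). Rtp4, a chaperone-like transmembrane protein, was at 0.337 and 0.442 against 1.05 and 1.21 CPM (1.53, SE 0.44, edgeR unadjusted p = 0.0136, adjusted p = 0.677). The libraries of each genotype were close for Rtp4, and its log2 fold change stayed between 1.35 and 1.74 as single libraries were left out. In the annotation Rtp4 overlaps the protein-coding gene Masp1, at a mean of 0.368 CPM, by 1022 bases, so its low counts carry that uncertainty. Ifi35 was at 18.6 and 19.2 against 19.1 and 17.4 CPM (-0.05, SE 0.13). Ifi27 was at 0.163 and 0.529 against 0.324 and 1.55 CPM, and Xaf1, a pro-apoptotic factor, at 0.970 and 0.486 against 0.810 and 1.63 CPM, both highest in Smad4 Knockout 2 with overlapping groups. Ifi44 had 0 counts in both controls and 5 and 25 in the knockouts. Its pooled knockout level of 0.164 CPM was 10.4-fold above the same floor, again without the spread between the knockouts. Besides the pair on chromosome 12 and the 3 genes on chromosome 16, 4 more neighbouring sets of members lie within 500 kb of each other. In the Ifit set on chromosome 19 the log2 fold changes were -0.19 for Ifit2, 0.22 for Ifit3 and 1.99 for Ifit1, so these neighbours had different values. In all, 8 members overlap a protein-coding gene in the annotation, Ifi27 among them, which lies with Ifi27l2a (0 counts in all libraries), and how such reads were assigned was not tested.

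Other genes of the pathway were then read from the same fit. Of the 74 tested in edgeR 0 passed. DESeq2 fitted 81 and called 0. Of the 18851 genes to which it gave an adjusted p, it called 0.520% higher and 0.175% lower. Some of the 81 had no adjusted p and could not be called. Pathway genes with an unadjusted edgeR p under 0.05 are given with their lists. Interferons themselves were nearly absent. Of 11 listed ligands 9 had 0 counts in all 4 libraries, among them Ifnb1, Ifng, Ifnl2 and Ifnl3. A count of 0 over both libraries of a group allows up to 0.0157 CPM in the controls and 0.0164 CPM in the knockouts. Ifne, an epithelial type I interferon, was at 22 and 8 counts in the controls against 43 and 37 in the knockouts (log2 fold change 1.49, SE 0.87). Ifnz had 6 to 13 counts and was not tested.

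In the list of receptors and kinases 5 of 10 genes were above 0 (median 0.01), and the most abundant, Ifngr1, had a mean of 137 TPM. Ifngr1, a chain of the interferon gamma receptor, was at 207 and 175 CPM among the controls versus 170 and 157 CPM with Smad4 knocked out, and Ifngr2 at 78.9 and 73.0 against 78.2 and 86.0 CPM. Jak2, a kinase at that receptor, was at 185 and 170 against 156 and 117 CPM (log2 fold change -0.38, SE 0.16, edgeR adjusted p = 0.787). Jak1 was at 108 and 128 against 134 and 111 CPM (0.05, SE 0.14), with overlapping groups. In this list 4 genes, Ifnar1, Ifnar2, Ifngr1 and Jak2, did not overlap downward (40.0%, against 18.6%). The log2 fold changes of Ifnar1, Ifnar2 and Ifngr1 were -0.12 to -0.24, and that of Ifngr2 was 0.11.

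**Figure D4:**
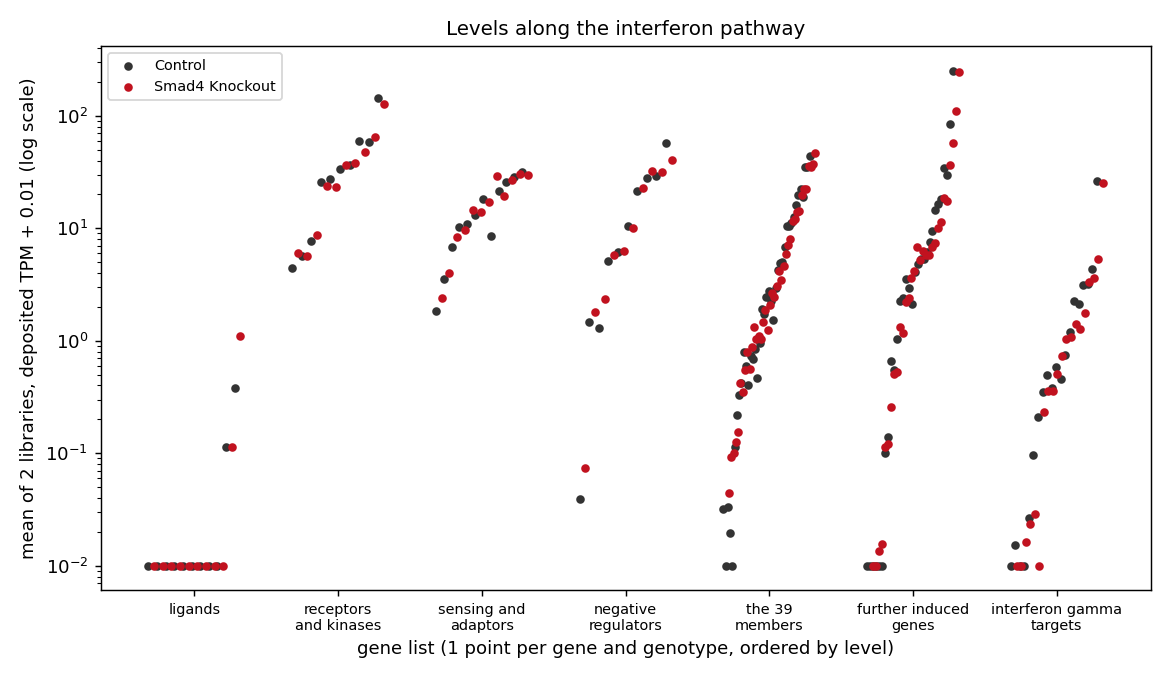
Mean deposited TPM plus 0.01 of each gene over the 2 libraries of a genotype, on a log scale, for the pathway lists and the 39 members; black is Control and red is Smad4 Knockout. Ligands with no counts sit at 0.01, Ifngr1 has the highest mean among receptors and kinases (137 TPM over the 4 libraries), and the members have means of 0.0278 to 45.1 TPM.

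Sensing genes and adaptors were 8 of 12 above 0 (median 0.09, against 49.5% of all tested genes above 0). In this list 5 did not overlap upward (against 18.2%) and 0 downward (against 18.6%). Tmem173 (STING), the adaptor of cytosolic DNA sensing, was at 15.9 and 8.60 CPM among the controls versus 24.5 and 49.98 CPM with Smad4 knocked out. Each knockout was above both controls, and Smad4 Knockout 2 was the highest library (log2 fold change 1.60, SE 0.42, edgeR unadjusted p = 0.00866, adjusted p = 0.677). Ddx58 (RIG-I), a sensor of viral RNA, was at 18.9 and 22.4 against 25.3 and 25.2 CPM (0.29, SE 0.14). Irf3, a factor activated downstream of both STING and RIG-I, was at 33.4 and 32.9 against 36.5 and 36.1 CPM. Tank was at 44.6 and 40.2 against 40.5 and 36.4 CPM. Negative regulators were 8 of 10 above 0, with a median of 0.14. Ptpn2, a phosphatase that acts on JAK1, was the one below both controls, at 85.9 and 71.0 CPM against 69.9 and 65.1 CPM. Setdb1, which silences retroelements, was at 76.9 and 89.2 against 90.5 and 86.5 CPM, and Rnaseh2b at 26.8 and 25.3 against 25.7 and 33.7 CPM.

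Genes mainly induced by interferon gamma had 9 of 15 tested above 0 and a median of 0.17. Gbp3, a guanylate-binding protein, was at 0.827 and 0.852 CPM among the controls versus 1.92 and 1.66 CPM with Smad4 knocked out (1.09, SE 0.33, edgeR unadjusted p = 0.0162, adjusted p = 0.677). Ifi47, an immunity-related GTPase, lay the other way at 2.25 and 2.57 against 1.59 and 1.04 CPM (-0.87, SE 0.33, edgeR unadjusted p = 0.0398, adjusted p = 0.754). The most abundant of the list, Irgm1, was at 34.9 and 37.1 against 35.9 and 31.8 CPM, and Gbp2 was at 6.01 and 7.16 against 7.84 and 7.89 CPM. The chemokine Cxcl11 had 0 counts in all libraries and Cxcl9 at most 4. A further list of 30 interferon-induced genes had 26 tested and 18 above 0 (69.2%, against 49.5%), with a median of 0.13. Of these Ddx60, Epsti1, Ifit1bl2, Ifitm1, Parp11 and Sp100 had an unadjusted edgeR p under 0.05 and were higher (6 genes, against 3.33% of all tested genes). They include Ifit1bl2 and Sp100, which passed the filter through the knockouts alone and had 0 counts in both controls. Ifit1bl2 had 21 and 22 counts in the knockouts and Sp100 had 33 and 15. Pooled over the knockouts, these are 14.9-fold and 16.6-fold above a floor of 3 counts over the control group. The most abundant, the membrane proteins Ifitm2 and Ifitm3 that block virus entry, were at 110 and 92.9 against 94.7 and 99.6 CPM, and at 32.8 and 34.8 against 33.2 and 54.1 CPM.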

How the data were processed

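Total RNA was sequenced from stranded, ribosomal RNA-depleted libraries, per the labels' protocols. Per the submitters' processing notes, the tools were StringTie 2.1.3b, HISAT2 2.1.0, Trimmomatic and bcl2fastq 2.20.0, with the mouse build mm10. How reads were counted, and whether by strand, the sources used here do not say. The authors deposited, per the file headers, a count of reads per gene with its FPKM and TPM. All counts were whole, and they were handled as the authors' estimated counts because StringTie derives counts from coverage. The deposited FPKM were not used, and 1 further FPKM column, in the file of Smad4 Knockout 1 but named for the other knockout, was left out. The column names of Control 2 carry its title with an added 2. Groups follow the genotype label, and replicate numbers only name samples.

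Counts were tested with edgeR 4.0.16 in R 4.3.3 (TMM, filterByExpr with a minimum count of 10, quasi-likelihood F-test, genotype as the only term). P-values were adjusted by Benjamini-Hochberg over 18115 genes, with 0.05 as threshold. The common dispersion was 0.0680. CPM use TMM-scaled library sizes, and levels are compared between genes in TPM. SEs are derived from the F statistic. With 2 libraries a group no exact permutation test can reach the threshold. The fit was tested on simulated data. DESeq2 1.42.0 and limma 3.58.1 were alternatives. Coordinates are RefSeq's for GRCm38 and matched 45679 gene IDs; 26 gene symbols that spreadsheets had turned into dates were restored from the gene ID. Of 186 listed genes 185 matched. Named genes are members by role, those of smallest p and highest TPM, and 2 of each per pathway list. The members and lists were chosen with earlier results of these data known. A count of 0 allows up to 3 counts. Some genes of the lists are not reported here.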

Additional observations from a re-analysis of the deposited data

How the results depend on the processing

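edgeR called 0 genes in all and 0 members with RLE size factors, without the filter, with histone, ribosomal protein and mitochondrial genes removed, and with robust moderation; limma on log2(TPM + 1) and on log2(TPM + 0.1) also called 0. DESeq2 called 131 genes and 1 member. Leaving out each library gave 0 to 92 called genes, the highest without Smad4 Knockout 1 and 1 without Control 1, and 0 members each time. Of the pathway genes 0 to 2 were called, Ifitm1 and Tmem173 without Smad4 Knockout 1. An arm left with 1 library is assumed to vary like the other. The member median was 0.14 (without Smad4 Knockout 2) to 0.44 (without Smad4 Knockout 1), and lay between 0.18 and 0.31 under the other alternatives. With members of at least 5 CPM only, chosen after seeing the data, it was 0.16. Bst2 was at 0.0175 and 0.0185 in the limma fits. On the first limma scale, which understates low genes, Irf7 was at 0.54, Rtp4 at 0.74 and Usp18 at -0.36. As libraries were left out, 15 members changed sign: Isg15 (-1.99 to 0.31), Ifit1 (-0.17 to 2.82), Ifit2 (-0.43 to 0.0891), Mx1 (-0.0509 to 1.07), Oas2 (-5.93 to 6.53), Oasl1 (-0.10 to 0.44), Irf1 (-0.0565 to 0.26), Bst2 (-0.30 to 0.27), Ifih1 (-0.0407 to 0.48), Zbp1 (-0.0892 to 0.69), Samd9l (-0.0355 to 0.14), Uba7 (-0.0297 to 0.26), Herc6 (-0.0402 to 0.20), Ifi27 (-0.0843 to 2.51) and Ifi35 (-0.12 to 0.0319). The cause was not tested. No paired analysis was possible because the labels number no replicates. Members with few counts are limited by depth, with SEs up to 2.23.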

Other observations

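Some interferon-induced genes outside the 39 members, named after their values were seen, had the order of Oas1a, with Control 2 lowest and Smad4 Knockout 2 highest. Epsti1 was at 3.45 and 1.47 CPM among the controls versus 4.78 and 10.6 CPM with Smad4 knocked out (log2 fold change 1.64, SE 0.53, edgeR adjusted p = 0.691). Ddx60, a helicase that aids RNA sensing, was at 0.827 and 0.151 against 1.56 and 2.05 CPM (1.88, SE 0.76, edgeR adjusted p = 0.785). Ifitm1 was at 14.1 and 11.1 against 15.2 and 33.3 CPM. Oas1g, a close copy of Oas1a, was at 0.827 and 0.561 against 0.717 and 2.62 CPM, so only Smad4 Knockout 2 was high.

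Trex1, an exonuclease that clears cytosolic DNA and so limits STING signalling, had 2 counts in Control 2, against 173 in Control 1 and 150 and 128 in the knockouts. No other gene of the negative regulator list with at least 100 counts in a library was that low in any library. The deposited TPM of Trex1 dropped further than its counts. It was 0.00868 in Control 2, against 2.57 in Control 1 and 2.77 and 1.95 in the knockouts. How reads were assigned to Trex1 was not tested.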
